A study of Mus musculus and Ictidomys tridecemlineatus with 36 samples.

Results

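The 6 *Dlx* genes encode homeodomain transcription factors related to the *Drosophila* gene *Distal-less*. The deposited peak lists of P2 mouse retina were searched for 3 histone marks and 2 transcription factors at *Dlx1*, *Dlx2*, *Dlx3*, *Dlx4*, *Dlx5*, and *Dlx6*, which are 6 of 21,938 protein-coding genes in the GENCODE M21 annotation. All 6 genes were chosen by name. A peak was assigned to the promoter when it lay within 1 kb of any annotated transcription start site (TSS), and to the window when it lay in the gene body plus 20 kb on each side.

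CUT&RUN cuts and sequences the DNA around a bound antibody. The series holds 36 libraries, of which 20 are from mouse retina collected at postnatal day 2 and 16 from the 13-lined ground squirrel, which were not analysed here. The mouse libraries comprise 2 each for H3K4me3, H3K27ac, H3K4me1, and the IgG control, 4 for Neurod1, and 8 for Otx2, with 4 Otx2 libraries for each of 2 antibodies. The retinas came from 2 biological replicates, each a pool of 3 individuals, with 385,000 nuclei per reaction. No treatment, strain, or genetic modification is given for these mice in the sources used here. The authors pooled the libraries of a target and called peaks jointly against IgG at a q-value of 0.05, so each peak has 1 fold enrichment over IgG and 1 −log10 q-value. There is no spread between replicates, no test between samples could be made, and read depth is unknown. The values below are therefore set beside the same values over all protein-coding genes or over the whole list.

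The *Dlx* genes lie in 3 pairs, and the members of a pair are transcribed towards each other with enhancers between them. *Dlx1* and *Dlx2* are known in the retina from progenitors and from ganglion, amacrine, and horizontal cells, where they act on genes of inhibitory neurons and of ganglion cells and hold back photoreceptor genes. *Dlx5* and *Dlx6* are known from forebrain interneurons, jaw, and limb, and *Dlx3* and *Dlx4* mainly from surface ectoderm, placenta, hair, and bone. Of the marks, H3K4me3 sits at promoters that are open or held ready, H3K4me1 at promoter flanks and enhancers, and H3K27ac at active promoters and enhancers. Otx2 is a homeodomain factor of progenitors and photoreceptors, and Neurod1 is a basic helix-loop-helix factor of photoreceptor and amacrine precursors.

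On the GRCm38 assembly, *Dlx1* (ENSMUSG00000041911.3) lies at chr2:71528113-71533981 on the plus strand with 6 annotated TSSs. *Dlx2* (ENSMUSG00000023391.8) lies at chr2:71543408-71546754 on the minus strand with 2 TSSs, 9426 bp away. *Dlx3* (ENSMUSG00000001510.8) lies at chr11:95120119-95125296 on the plus strand with 1 TSS. *Dlx4* (ENSMUSG00000020871.8) lies at chr11:95140447-95146263 on the minus strand with 2 TSSs, 15,150 bp from *Dlx3*. *Dlx6* (ENSMUSG00000029754.13) lies at chr6:6863334-6868568 on the plus strand, and *Dlx5* (ENSMUSG00000029755.10) at chr6:6877805-6882085 on the minus strand, each with 3 TSSs and 9236 bp apart. The windows of a pair overlap, so paired genes share most of their peaks and are not independent observations. The antisense gene *Dlx1as* covers *Dlx1*, *Dlx6os1* covers *Dlx6*, and *Dlx4os*, named here after its overlap was seen, covers the start of *Dlx4*; CUT&RUN does not record strand, and a peak there cannot be given to either gene of such an overlap.

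In brief, every *Dlx* promoter carried an H3K4me1 peak, those of *Dlx1*, *Dlx2*, and *Dlx3* also carried a low H3K4me3 peak, and none carried H3K27ac. No H3K27ac peak lay anywhere in the 6 windows. Within 1 kb of a TSS, H3K4me3 was called at 3 of 6 *Dlx* genes against 56.0% of all genes, H3K27ac at 0 of 6 against 22.6%, and H3K4me1 at 6 of 6 against 63.6%. Otx2 was called there at 3 of 6 against 51.0%, and Neurod1 at 0 of 6 against 5.76%. In the wider windows, H3K4me3 was called at 4 of 6 against 66.6%, H3K27ac at 0 of 6 against 53.7%, and H3K4me1 at 6 of 6 against 81.2%. Otx2 was called in 6 of 6 windows against 69.9% of all genes, and Neurod1 in 2 of 6 against 19.4%. For Otx2, 4 of 6 windows kept a peak at a −log10 q of at least 5. At a fold of at least 4, 2 of 6 did, those of *Dlx3* and *Dlx4*, and Neurod1 was left in 0 of 6. The shares of all genes in windows are not given at these limits. Within 1 kb of a TSS, that of Otx2 fell to 41.9% and 25.4%, and that of Neurod1 to 1.90% at a fold of at least 4. With 6 genes in 3 pairs, the counts for H3K4me3, Otx2, and Neurod1 without these limits were not far from the shares of all genes.

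**Figure D1:**
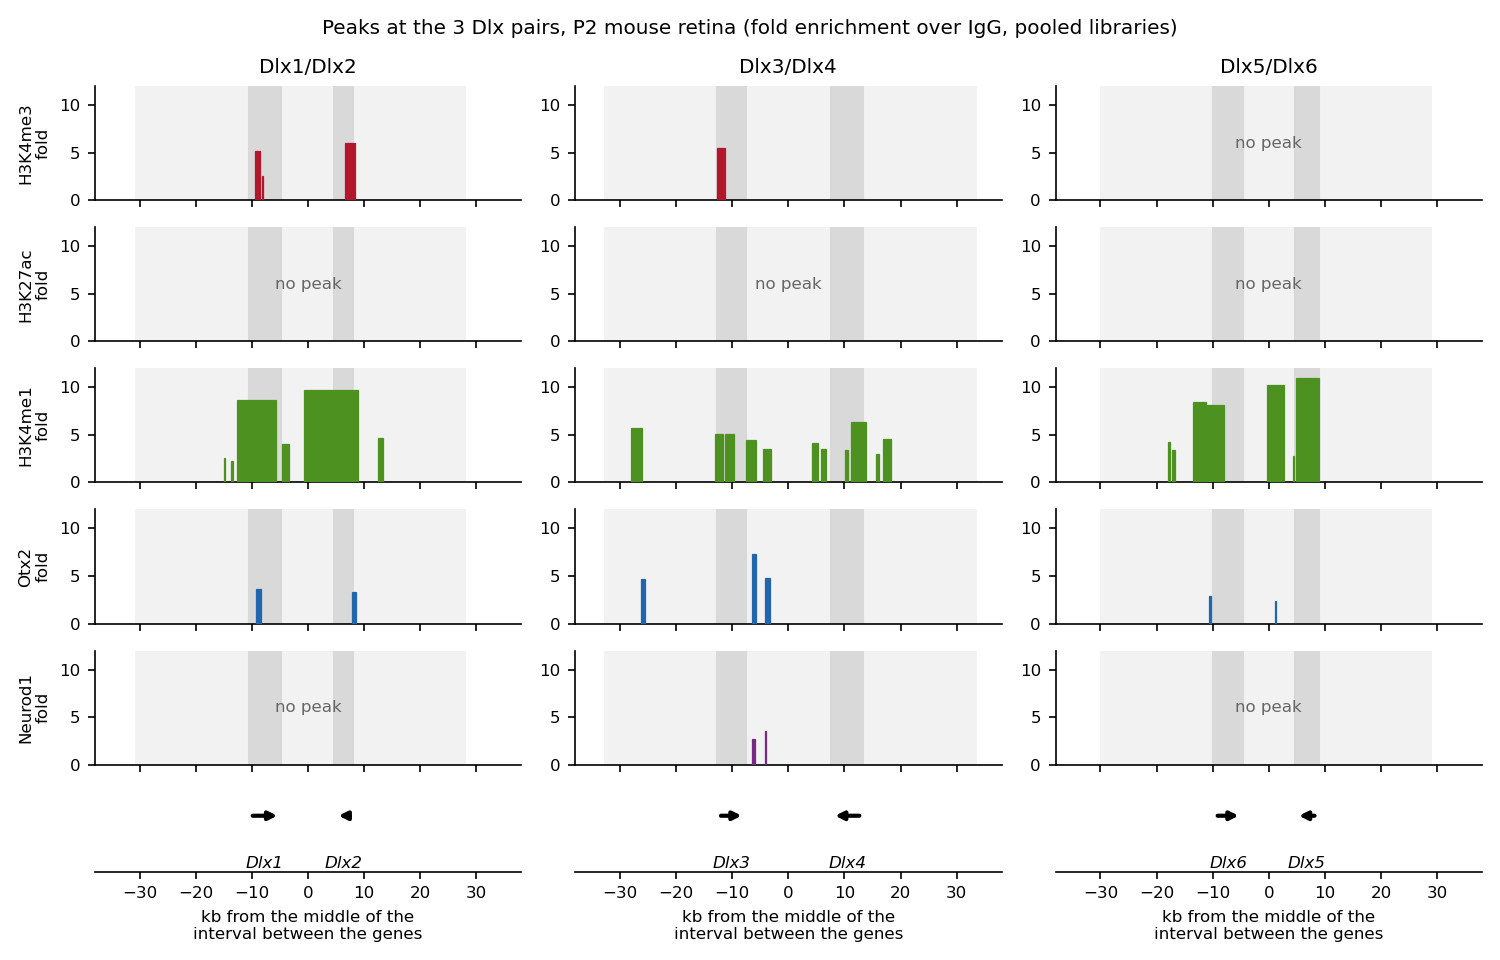
Peaks in the windows of the 3 *Dlx* pairs (columns) for the 5 targets (rows), with fold enrichment over IgG of each pooled peak on the y axis and distance in kb from the middle of the interval between the paired genes on the x axis. Bars span the peaks, light grey marks the windows, dark grey marks the genes, and arrows give the direction of transcription; no H3K27ac peak is drawn at any pair, and H3K4me3 is drawn at *Dlx1*, *Dlx2*, and *Dlx3* alone.

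The H3K4me3 peaks at the *Dlx* promoters were weak for this list. At *Dlx1*, a peak of 842 bp at chr2:71529309-71530150 stood 5.13-fold over IgG at a −log10 q of 9.44, with its summit in a *Dlx1* UTR, 73 bp downstream of the RefSeq start. A second, shorter peak in a *Dlx1* intron, of 278 bp at chr2:71530450-71530727, had a fold of 2.56 and a −log10 q of 1.49. At *Dlx2*, a peak of 1746 bp at chr2:71545304-71547049 had a fold of 5.96 and a −log10 q of 16.8, with its summit in the coding sequence. At *Dlx3*, a peak of 1556 bp at chr11:95120094-95121649 had a fold of 5.44 and a −log10 q of 9.73, with its summit in an intron, 564 bp downstream of the TSS. The 4 peaks ranged from 2.56 to 5.96, all under the median of 13.5 over the 14,069 H3K4me3 peaks.

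Among the 12,289 genes with H3K4me3 within 1 kb of a TSS, the highest such peak had a median fold of 17.5, against 5.44 over the 3 *Dlx* genes. Only 8.75% of those genes had a peak as low as that of *Dlx1* or lower, 9.98% as low as that of *Dlx3*, and 11.5% as low as that of *Dlx2*. The *Dlx4*, *Dlx5*, and *Dlx6* promoters had no H3K4me3 peak, and the window of *Dlx4* reached H3K4me3 only through the peak at *Dlx3*. The windows of *Dlx5* and *Dlx6* held none. The lists hold only peaks past the authors' threshold, so a gene without a peak may still carry weaker signal. In whole retina, a mark in few cells and a low level of the mark in many cells cannot be told apart.

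**Figure D2:**
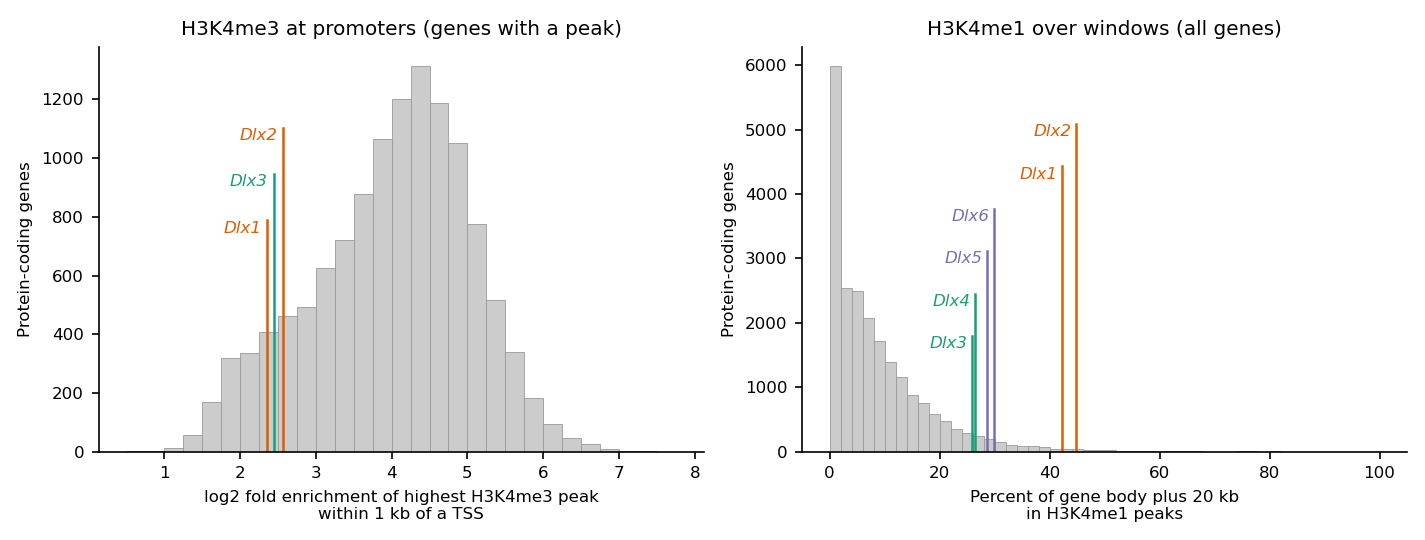
Left, log2 fold enrichment over IgG of the highest H3K4me3 peak within 1 kb of a TSS (x axis) against the number of the 12,289 protein-coding genes with such a peak (y axis), with lines at *Dlx1*, *Dlx2*, and *Dlx3*. Right, percent of the gene body plus 20 kb inside H3K4me1 peaks (x axis) against the number of all 21,938 genes (y axis), with lines at the 6 *Dlx* genes, which lie from 25.8% to 44.8%, where the histogram is thin; line heights are set for legibility and carry no value.

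The base composition of the *Dlx* promoters set them beside genes that mostly carry H3K4me3. Within 500 bp of the TSSs, the ratio of observed to expected CpG was 0.686 at *Dlx1*, 0.752 at *Dlx2*, 0.697 at *Dlx3*, 0.727 at *Dlx4*, 0.754 at *Dlx5*, and 0.732 at *Dlx6*, against a median of 0.449 over all genes. Of the 3735 genes with a ratio of at least 0.686, 91.0% had H3K4me3 within 1 kb of a TSS and 27.3% had H3K27ac. *Dlx4*, *Dlx5*, and *Dlx6* were thus among the CpG-rich promoters that had no H3K4me3 peak, and the other *Dlx* promoters among those that had one. The GC content of the same stretches ran from 57.3% at *Dlx1* to 65.0% at *Dlx6*, above the median of 53.1% over all genes.

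H3K27ac, called at 62,930 places in this retina, was called at none of the *Dlx* windows, which together span 183,539 bp. The nearest H3K27ac peak to a TSS of *Dlx1* lay 47.8 kb away inside *Metap1d*, at chr2:71480008-71480284 with a fold of 3.49, and the same peak was the nearest to *Dlx2* at 65.7 kb. For *Dlx3* the nearest lay 91.6 kb away in *Pdk2*, and for *Dlx4* 116 kb away in *Tac4*. For *Dlx5* and *Dlx6* the nearest was a single intergenic peak, 254 kb and 273 kb away. The median distance over all genes was 23.8 kb, and 35.8% of genes lay as far from H3K27ac as *Dlx1* or farther. Even the distances at *Dlx5* and *Dlx6* are reached elsewhere, since 10.3% of genes lay at or beyond that of *Dlx6*.

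The absence of H3K27ac was read beside genes of like H3K4me3 and of like length. Of all genes with H3K4me3 within 1 kb of a TSS, 37.1% also had H3K27ac there and 73.3% had it in the window. Among the 345 genes whose highest H3K4me3 fold fell between those of *Dlx1* and *Dlx2*, 22.6% had H3K27ac within 1 kb of a TSS and 65.5% had it in the window. The *Dlx* windows are also short, from 43,347 to 45,869 bp against a median of 57,425 bp. Among the 2255 genes with windows of that length, 32.3% had an H3K27ac peak in the window, 49.6% had H3K4me3, 64.4% H3K4me1, 52.2% Otx2, and 13.9% Neurod1. A *Dlx* window without H3K27ac was thus in the majority for its length, and 6 of 6 such windows represent 3 loci.

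The marks can also be read as states of a promoter. *Dlx1*, *Dlx2*, and *Dlx3* had H3K4me3 with H3K4me1 and no H3K27ac within 1 kb of a TSS, a state found at 31.6% of all genes. *Dlx4*, *Dlx5*, and *Dlx6* had H3K4me1 alone of the histone marks, a state found at 10.6% of all genes. H3K27me3, the mark with which a repressed or bivalent promoter would be separated from a merely unacetylated one, was not analysed here. All 4 H3K4me3 peaks of the windows overlapped H3K4me1 and lacked H3K27ac, as did 60.3% of the whole H3K4me3 list. Their lack of H3K27ac follows from its absence in the windows.

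The *Dlx* loci carried more H3K4me1 than most genes. The 25 H3K4me1 peaks of the windows covered 42.3% of the window of *Dlx1*, 44.8% of that of *Dlx2*, 25.8% at *Dlx3*, 26.5% at *Dlx4*, 28.6% at *Dlx5*, and 29.9% at *Dlx6*. The median over all genes was 5.95%, and 3.71% among genes with windows of the same length. A coverage as high as that of *Dlx2* was reached by 0.834% of genes, as high as that of *Dlx1* by 1.09%, as high as that of *Dlx6* by 3.71%, and as high as that of *Dlx5* by 4.36%. For *Dlx4* and *Dlx3* these shares were 5.42% and 5.82%. Of the 1276 genes that covered at least as much as *Dlx3*, 130 or 10.2% had no H3K27ac in their window. The 6 *Dlx* genes were among those 130 by construction. The lowest *Dlx* coverage set the limit, and no *Dlx* window held H3K27ac.

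The pairs reached this coverage in different ways. The *Dlx1* and *Dlx2* loci held a few very wide peaks. One of 7114 bp at chr2:71525975-71533088, with a fold of 8.69, took in all 6 annotated TSSs of *Dlx1* and was as wide as or wider than 98.9% of the H3K4me1 peaks. Another of 9635 bp at chr2:71537965-71547599, with a fold of 9.70, ran from the interval between the genes over all of *Dlx2* and was as wide as or wider than 99.6% of them. The wider of these and a peak of 1250 bp at chr2:71534125-71535374, with a fold of 4.08, filled 71.0% of the interval between *Dlx1* and *Dlx2*.

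The *Dlx3* and *Dlx4* loci held 12 smaller H3K4me1 peaks of 297 to 2564 bp, with a median fold of 4.33. The highest, at a fold of 6.32, lay over the *Dlx4* promoter and the start of *Dlx4os* at chr11:95144098-95146661, and the peak at the *Dlx3* promoter had a fold of 5.11. H3K4me1 filled 32.4% of the interval between these genes. The windows held 10 H3K4me1 peaks at *Dlx3* and 11 at *Dlx4*, against 6 at *Dlx1*, 6 at *Dlx2*, 5 at *Dlx5*, 7 at *Dlx6*, and a median of 4 over all genes, so that the loci with the most peaks had the lowest coverage of the 3.

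The *Dlx5* and *Dlx6* loci had the 2 strongest H3K4me1 peaks of the family. A peak of 4141 bp at chr6:6877980-6882120, over nearly all of *Dlx5*, had a fold of 11.0, and an intergenic peak of 3038 bp at chr6:6872886-6875923 had a fold of 10.3. The *Dlx6* promoter lay in a peak of 3071 bp at chr6:6862138-6865208 with a fold of 8.18, next to a peak at chr6:6859772-6861936 with a fold of 8.45 in an intron of *Dlx6os1*. H3K4me1 filled 35.5% of the interval between *Dlx6* and *Dlx5*. The genes without any H3K4me3 peak in their windows thus had H3K4me1 folds at their promoters of 11.0 and 8.18, against 5.11 to 9.70 at the other *Dlx* promoters. The 9.70 is that of the wide peak over *Dlx2*, whose summit lay between the genes, 6371 bp from the nearest *Dlx2* TSS.

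In each *Dlx* gene at least 1 TSS base lay inside an H3K4me1 peak. H3K4me1 often forms the flanks of a strong H3K4me3 peak and is low at its centre, and of the genes with H3K4me3 within 1 kb of a TSS, 45.5% had a TSS base inside an H3K4me1 peak. That share was 69.0% among the 345 genes with H3K4me3 folds like those of *Dlx1* to *Dlx3*, and these 3 genes had it as well. Of the 25 H3K4me1 peaks in the windows, 21 (84%) overlapped neither H3K4me3 nor H3K27ac, against 69.3% of the whole list. None overlapped H3K27ac, which was absent from the windows, so this class restates that absence in part.

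**Figure D3:**
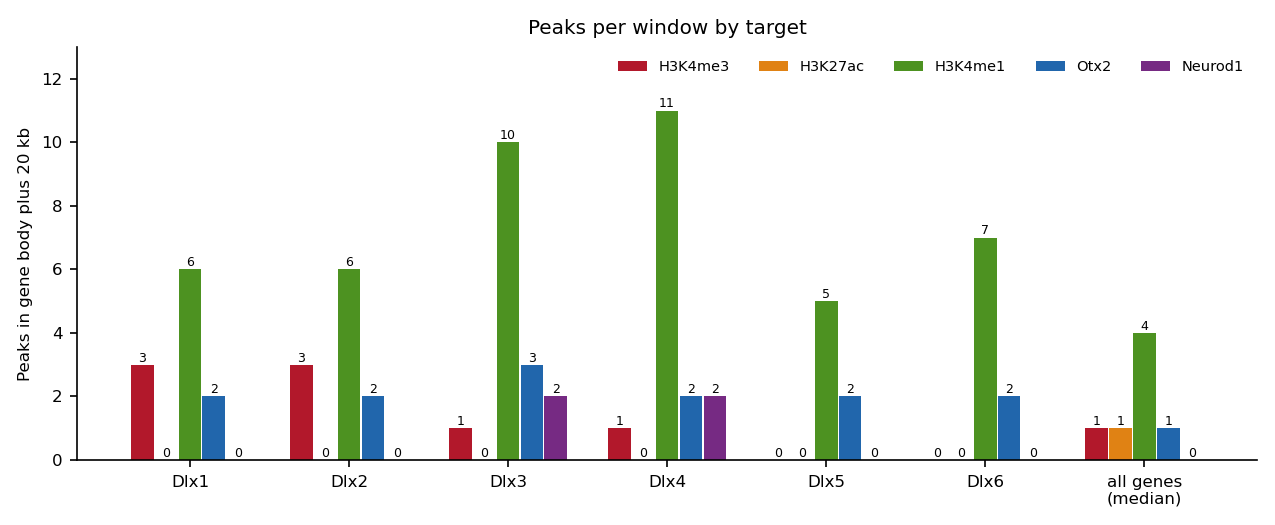
Number of peaks (y axis) in the gene body plus 20 kb of each *Dlx* gene and, at the right, the median over all 21,938 protein-coding genes, by target. H3K4me1 gave 5 to 11 peaks in each *Dlx* window against a median of 4, H3K27ac gave 0 against a median of 1, and Neurod1 peaks occur at *Dlx3* and *Dlx4* alone; paired genes share peaks.

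Otx2 was called at 7 places in the windows. All 7 peaks overlapped H3K4me1, as did 78.9% of the whole Otx2 list. At *Dlx1*, a peak at chr2:71529399-71530349 had a fold of 3.61 and a −log10 q of 6.32, with its summit in a *Dlx1* UTR, 502 bp downstream of the RefSeq start. At *Dlx2*, a peak at chr2:71546463-71547176 had a fold of 3.32 and a −log10 q of 6.56, with its summit 261 bp upstream of the TSS. Both lay on H3K4me3 peaks, and both were close to the median fold of 3.54 over the 29,115 Otx2 peaks. At *Dlx6*, a peak at chr6:6862521-6862906 had a fold of 2.93 and a −log10 q of 3.62, 509 bp upstream of the TSS in an intron of *Dlx6os1*. The intergenic peak between *Dlx6* and *Dlx5*, at chr6:6874308-6874522, was the weakest of the 7 with a fold of 2.33 and a −log10 q of 1.91.

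The strongest Otx2 peaks of the family lay at *Dlx3* and *Dlx4*, away from the promoters. In the interval between these genes, a peak at chr11:95126435-95127083 had a fold of 7.37 and a −log10 q of 34.1, at or above 92.8% of the Otx2 list, with its summit 6697 bp downstream of the *Dlx3* TSS. The next, at chr11:95128695-95129641, had a fold of 4.76 and a −log10 q of 24.9, with its summit 9100 bp downstream. On the other side of *Dlx3*, a peak at chr11:95106683-95107340 had a fold of 4.67 and a −log10 q of 19.2, 13,241 bp upstream. All 3 of these exceeded the other 4 Otx2 peaks, whose folds ran from 2.33 to 3.61.

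Neurod1 was called at 2 places in all the *Dlx* windows, and both lay under the Otx2 peaks between *Dlx3* and *Dlx4*. The first, at chr11:95126464-95127001, had a fold of 2.76 and a −log10 q of 3.29, and the second, at chr11:95128637-95128883, had a fold of 3.54 and a −log10 q of 10.1. Both were below the median fold of 3.78 over the 4744 Neurod1 peaks. Overlap with Otx2 was common for Neurod1, at 82.1% of its list. H3K27ac overlapped 52.3% of the list but neither of these peaks, since the windows held none.

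The peaks of both factors sat on H3K4me1 without H3K27ac, and the sites were counted by class. Overlap with H3K4me1 was common in both lists, at 78.9% for Otx2 and 85.2% for Neurod1. Of the 7 Otx2 peaks, 5 lay on H3K4me1 alone of the histone marks, against 26.9% of the Otx2 list. That 0 lay on H3K27ac, against 36.2%, was fixed by its absence from the windows. The classes without H3K27ac given here restate that absence in part. Of the 25 H3K4me1 peaks, 5 (20%) overlapped Otx2 but neither H3K4me3 nor H3K27ac, against 4.84% of the H3K4me1 list. Overlap with both factors in that class occurred at 2 of 25 (8%), both between *Dlx3* and *Dlx4*, against 0.591% of the list. These are counts of a few neighbouring peaks in 3 loci, given with no test. The H3K4me1 peaks of the windows had a median width of 1349 bp, against 805 bp over the list. The overlap shares were not adjusted for width.

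**Figure D4:**
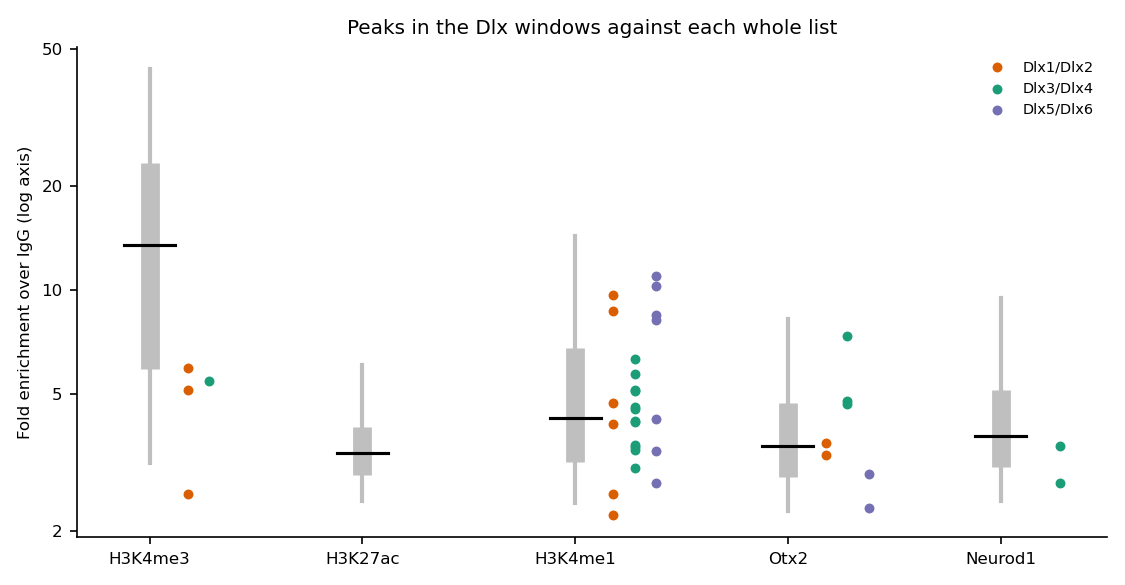
Fold enrichment over IgG (y axis, log scale) of the peaks in the *Dlx* windows (points, coloured by pair) beside each whole list (x axis), where the thin bar spans the 5th to 95th percentile, the thick bar the 25th to 75th, and the black line is the median. The H3K4me3 points lie at 2.56 to 5.96 under a median of 13.5, the Otx2 points of *Dlx3* and *Dlx4* lie above their median of 3.54, and H3K27ac has no point.

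The sequences under some of the summits of the 7 Otx2 and 2 Neurod1 peaks are shown because they are places at which these factors were called at these genes. Each is the plus strand of GRCm38 from 100 bp before to 100 bp after the summit, and capitals mark a match to 1 of the 4 motifs searched on both strands. The stretches that are not shown held no such match. TAATCC is the core recognised by Otx2 and related homeodomains, TAATTA is a core recognised by Dlx proteins among many homeodomains, and CAGATG and CAGCTG are E-boxes bound by basic helix-loop-helix factors; the motifs do not overlap one another in these stretches. The order is the strongest Otx2 peak between *Dlx3* and *Dlx4* (chr11:95126716-95126916), the stronger Neurod1 peak (chr11:95128717-95128917), the Otx2 peak beside it (chr11:95129119-95129319), the Otx2 peak upstream of *Dlx2* (chr2:71546915-71547115), and that upstream of *Dlx6* (chr6:6862725-6862925).
Otx2, Dlx3/Dlx4, strongest: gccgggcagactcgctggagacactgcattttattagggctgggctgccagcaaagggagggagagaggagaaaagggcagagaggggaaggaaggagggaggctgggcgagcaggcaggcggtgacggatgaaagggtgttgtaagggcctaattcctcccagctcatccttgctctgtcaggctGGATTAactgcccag
Neurod1, Dlx3/Dlx4, stronger: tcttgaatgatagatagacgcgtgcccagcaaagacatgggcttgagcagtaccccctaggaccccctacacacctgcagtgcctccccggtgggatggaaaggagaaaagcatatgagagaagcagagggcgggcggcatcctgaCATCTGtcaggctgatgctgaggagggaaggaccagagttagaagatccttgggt
Otx2, Dlx3/Dlx4, next: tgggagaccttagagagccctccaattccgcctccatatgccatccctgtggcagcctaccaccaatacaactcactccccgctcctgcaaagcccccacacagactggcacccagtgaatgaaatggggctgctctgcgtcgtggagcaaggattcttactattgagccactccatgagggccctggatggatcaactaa
Otx2, upstream of Dlx2: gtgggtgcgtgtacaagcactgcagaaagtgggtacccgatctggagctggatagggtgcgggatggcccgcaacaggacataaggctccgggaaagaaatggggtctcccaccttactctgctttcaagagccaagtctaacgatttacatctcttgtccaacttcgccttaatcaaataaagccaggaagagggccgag
Otx2, upstream of Dlx6: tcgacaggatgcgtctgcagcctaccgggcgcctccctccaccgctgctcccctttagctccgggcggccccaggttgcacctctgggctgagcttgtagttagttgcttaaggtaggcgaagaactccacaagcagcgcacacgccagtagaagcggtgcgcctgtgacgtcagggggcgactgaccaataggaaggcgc

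A TAATCC match was present near 1 of the 7 Otx2 summits, on the minus strand at chr11:95126902-95126907 in the strongest peak, 86 bp from its summit, against 9.12% of the whole Otx2 list. TAATTA was present at 0 of 7 against 4.38%, CAGATG at 0 of 7 against 14.8%, and CAGCTG at 0 of 7 against 13.2%. A CAGATG match was present at 1 of the 2 Neurod1 summits, on the minus strand at chr11:95128863-95128868 in the stronger peak, 46 bp from its summit, against 29.8% of the Neurod1 list. CAGCTG was present at 0 of 2 against 23.9%, TAATCC at 0 of 2 against 7.59%, and TAATTA at 0 of 2 against 3.54%. Within 200 bp of the summits, TAATCC was present at 2 of 7 Otx2 peaks against 25.4% of the list and CAGCTG at 1 of 7 against 27.2%. CAGATG stayed at 0 of 7 against 28.9%, and TAATTA at 0 of 7 against 11.1%. At the Neurod1 peaks, CAGATG stayed at 1 of 2 against 65.4% of the list, and CAGCTG was present at 1 of 2 against 51.5%. TAATCC was present there at 0 of 2 against 20.9%, and TAATTA at 0 of 2 against 9.25%. A match is a description of letters and does not show that a protein was bound through them.

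Most genes next to the pairs had higher H3K4me3 folds than the *Dlx* genes. None of these folds reached the median of 17.5 over genes with H3K4me3 within 1 kb of a TSS. The nearest protein-coding neighbours are *Metap1d*, a mitochondrial methionine aminopeptidase, and *Itga6*, an integrin, at *Dlx1* and *Dlx2*; *Itga3*, an integrin, and *Tac4*, a tachykinin, at *Dlx3* and *Dlx4*; and *Sem1*, a proteasome subunit, and *Sdhaf3*, an assembly factor of succinate dehydrogenase, at *Dlx6* and *Dlx5*. Their highest H3K4me3 folds within 1 kb of a TSS were 10.4 at *Metap1d*, 15.6 at *Itga6*, 15.1 at *Itga3*, 13.4 at *Sem1*, and 10.7 at *Sdhaf3*, each above the 5.96 of *Dlx2*, and *Tac4* had none. *Tac4* was the neighbour with H3K27ac there, at a fold of 3.00. *Metap1d* ends 2.92 kb from *Dlx1* and its introns lie partly in the *Dlx1* window. *Itga3*, 43.3 kb from *Dlx3*, also had Otx2 at a fold of 11.4 and Neurod1 at 3.21.

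A list of 16 genes was compared with the *Dlx* genes, made up of genes that Dlx factors act on or with, or that mark the interneurons and ganglion cells in which they work. H3K4me1 was called within 1 kb of a TSS at 16 of 16, H3K4me3 at 12, Otx2 at 9, H3K27ac at 4, and Neurod1 at 1, and 7 of 16 had H3K27ac in the window. Over all genes, these shares were 63.6%, 56.0%, 51.0%, 22.6%, 5.76%, and 53.7%. *Gad1*, which makes GABA, resembled *Dlx2* in the histone marks, with H3K4me3 at 6.25 and H3K4me1 at 11.7 and 0 H3K27ac peaks in its window. It had no Otx2 peak within 1 kb of a TSS, where *Dlx2* had one at a fold of 3.32. The other GABA synthase gene, *Gad2*, had H3K4me3 at 26.6, H3K27ac at 5.05, and 12 H3K27ac peaks in its window. *Slc32a1*, the vesicular GABA transporter, had H3K4me3 at 8.80 without H3K27ac. *Pou4f2*, a ganglion cell regulator, had H3K4me3 at 2.78, while the photoreceptor regulator *Crx* had 46.3 together with an Otx2 peak of 14.6. The forebrain interneuron genes *Lhx6*, *Sp8*, and *Sp9* had H3K4me1 and no H3K4me3 there, the same combination as *Dlx4*, *Dlx5*, and *Dlx6*.

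Among 6 homeobox relatives, H3K4me1 was called within 1 kb of a TSS at 6, H3K4me3 at 3, Otx2 at 2, and H3K27ac and Neurod1 at 0, counts close to those of the *Dlx* genes. Over all genes, the shares were 63.6%, 56.0%, 51.0%, 22.6%, and 5.76% in that order. The H3K4me3, Otx2, and Neurod1 counts were thus also not far from those of genes in general. *Vax2*, which patterns the ventral retina, had H3K4me3 at 40.8 and 7 H3K27ac peaks in its window, the only one of these relatives with H3K27ac in the window. *Vax1* had H3K4me3 at 6.41 and *Msx1* at 2.53. *Msx2*, *Barx1*, and *Emx2* had no H3K4me3 peak there.

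Marker genes of the cell classes in the retina were read in the same way, since the *Dlx* genes belong to some classes and not to others. H3K4me3 was called within 1 kb of a TSS at 6 of 6 progenitor markers, 5 of 6 photoreceptor precursor markers, and 6 of 7 markers of amacrine, horizontal, and ganglion cells. Over all genes, 56.0% had H3K4me3 there and 53.7% had H3K27ac in the window. H3K27ac in the window was called at 6 of 6 progenitor and 6 of 6 photoreceptor markers, but at 0 of 7 markers of amacrine, horizontal, and ganglion cells, as at 0 of 6 *Dlx* genes. These 7 markers include *Pou4f2* and *Isl1* of the list of 16. In that list, 7 of 16 genes had H3K27ac in the window, among them the GABA synthase gene *Gad2* with 12 peaks. Whether the share of these cells in the tissue has a part in the lack of H3K27ac at the *Dlx* genes was not tested. Of markers of cells outside the neural retina, H3K4me3 was called at 2 of 4 for pigment epithelium, 1 of 3 for endothelium, and 0 for skin, liver, muscle, and T cells. H3K27ac in the window was called at 2 of 3 liver, 2 of 3 endothelial, 1 of 3 skin, 1 of 3 muscle, and 1 of 4 pigment epithelium markers, and at 0 of 2 for T cells.

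The genes most like each *Dlx* gene, leaving out the family itself and any gene whose window overlaps a *Dlx* window, were found over 10 measures, the highest fold within 1 kb of a TSS and the bases covered in the window for the 5 lists, on log2 scales divided by their SD over all genes. Of these other genes, the nearest to *Dlx1* were *Bmf* (distance 0.280) and *Tlr3* (0.290), and *Slc39a14* (0.227) was among the nearest to *Dlx2*. For *Dlx3* they were *Slc17a7* (0.210), a vesicular glutamate transporter, and *Stmn4* (0.344), and for *Dlx4* *Gfy* (0.250) and *Lgals1* (0.364). *Dlx5* had the closest match of the family in *Sox21* (0.0716), a transcription factor of neural progenitors, followed by *Prkcq* (0.141), and *Dlx6* had *Myo7a* (0.217) and *Tal1* (0.235). The measures used bases covered and not percent of the window. H3K4me1 covered from 5.24% of the window at *Prkcq* to 28.0% at *Gfy* among these genes, against 25.8% to 44.8% at the *Dlx* genes. The median distance to the 21,931 genes compared ran from 3.64 for *Dlx1* to 4.42 for *Dlx4*. Within the family, *Dlx1* and *Dlx2* lay 0.151 apart, *Dlx3* and *Dlx4* 1.26, and *Dlx5* and *Dlx6* 1.61, which follows in part from their shared windows, while genes of different pairs lay 2.50 to 3.93 apart.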

How the data were processed

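The mouse peak lists hold 1 row per peak. The authors trimmed reads with Trim Galore 0.6.4 and cutadapt 3.5, aligned them to GRCm38 with Bowtie2, filtered them with SAMtools 1.12, removed duplicates, and called peaks with MACS2 against IgG, jointly over the libraries of a target. The deposited fold enrichment is a ratio of pooled signal to IgG, and the deposited significance is a −log10 q-value, with a threshold of 0.05. Neither was rescaled. Peaks on the ENCODE blacklist or on the mitochondrial genome had been removed.

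Overlaps were computed with pandas 2.3.3 and numpy 2.4.6 under Python 3.11.15; scipy 1.17.1 gave binomial intervals for shares of genes, and figures used matplotlib 3.10.9. A shared base counted as overlap, and the overlap code was checked on simulated intervals against bedtools 2.31.1. TSSs came from all transcripts of GENCODE M21, and RefSeq starts and sequence from GRCm38.p6. RefSeq promoter entries were at hand for *Dlx1* and *Dlx2*.

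The *Dlx* genes and all gene lists were chosen with earlier results of these data known. Named besides the *Dlx* genes are the nearest protein-coding genes of each pair, the 2 genes most like each member, the lists, every Otx2 and Neurod1 peak, and the highest peak of each list at each pair; other H3K4me1 and H3K4me3 peaks were named after their values were seen. Some of the genes under this rule are not reported here. The alternatives were stricter peaks, longer overlap, summits, other flanks, coding transcripts alone, merged peaks, and longer motif stretches.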

Additional observations from a re-analysis of the deposited data

How the results depend on the processing

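The counts of *Dlx* genes with a peak within 1 kb of a TSS and the counts of peaks in their windows were recomputed under 70 combinations of result and setting, and 63 stayed within 1.5 times the value given. Counts of 0 could not change under the stricter settings, and such cases are among the 63. With windows reaching 50 kb beyond the gene, 1 H3K27ac peak entered them, that in *Metap1d*, and the H3K4me1 count rose from 25 to 43. With peaks of a fold of at least 4, Otx2 was left at 0 of 6 promoters, against 25.4% of all genes. In the windows Otx2 kept 3 peaks, all at *Dlx3* and *Dlx4*, and Neurod1 kept 0. Neurod1 was left with 1 peak at a −log10 q of at least 5, and with 1 at an overlap of at least 250 bp. H3K27ac stayed at 0 of 6 promoters, a count that only the setting of 2 kb around a TSS could have raised. The H3K4me3 promoter count stayed at 3 of 6 in every setting. The share of all genes with H3K4me3 ran from 53.5% at a fold of at least 4 to 56.5% within 2 kb. The H3K4me1 promoter count fell to 5 of 6, losing *Dlx2*, where the summit had to lie within 1 kb of a TSS. The share of all genes was 52.4% at that setting. Otherwise the H3K4me1 count stayed at 6 of 6. The share of all genes then ran from 47.6% at a fold of at least 4 to 66.6% within 2 kb. Of 247 further values per gene, per list, or per motif, 65 moved beyond their limits. No paired analysis was possible because each list pools the libraries of a target and holds no value per replicate, and no replicate could be left out.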
